A study of Mus musculus with 6 samples.

Results

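Chemokine ligands are small secreted proteins that steer the movement of white blood cells and other motile cells. The 35 genes described here are all those on the array whose symbol marks them as a CC (20 genes), CXC (13 genes), CX3C (Cx3cl1) or XC (Xcl1) chemokine, out of 19321 named genes. They were chosen by gene symbol, with earlier results of these data known. Where a gene had several probes, the one with the highest mean deposited intensity over the 6 arrays stood for it (38 probes in all). A chemokine binds a receptor of the seven-pass membrane type on the cell it attracts, and most receptors accept several ligands, so most ligands are grouped below by receptor. In muscle they are best known for bringing in neutrophils and then monocytes after injury, and stromal cells, vessel cells and resident macrophages can all make them. Many of these genes are rapidly switched on by NF-kappaB or by interferons.

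RNA came from 3 populations freshly sorted from the hind limb muscles of C57BL/6 mice, either young (8 to 10 weeks) or aged (24 to 28 months). PDGFRa+ cells are the mesenchymal progenitors between the fibres, satellite cells are the muscle stem cells, and the population called CD31_CD45 here mixes endothelial cells (CD31+) with hematopoietic cells (CD45+). The labels name no genotype beyond the strain and no treatment. Each population at each age is 1 array, made from cells pooled over repeated sorts, so no population has a replicate at the same age. Because the CD31_CD45 gate holds both endothelial and blood-derived cells, a level there cannot be assigned to either. In sorted bulk RNA, fewer cells of a type and less RNA per cell cannot be told apart.

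Between 88.4% and 92.3% of the probes on an array were above background, and 29 to 31 of the 35 ligands were. The sort markers followed the labels: 11 of 11 mesenchymal markers were called higher in PDGFRa+ cells than in either other population, 10 of 10 satellite markers higher in satellite cells, and 10 of 10 endothelial and 9 of 9 pan-hematopoietic markers higher in CD31_CD45 cells. The scanner gain recorded in the file headers divides the arrays into 3 and 3: young PDGFRa+, young satellite and aged PDGFRa+ in one set, and the other 3 in the second. Every comparison of PDGFRa+ with CD31_CD45 cells crosses the sets, as does the satellite age pair. Satellite cells alone have an array in each set. A term (block) for scanner set therefore takes up any satellite age difference that the other populations do not share. Calls kept or lost with it do not isolate the scanner, and the added term leaves fewer residual degrees of freedom. Values called intensity below are the authors' deposited linear values, scaled by them to a median of 25 per array. Log2 differences come from a limma fit of population and age to all 6 arrays on background-corrected, quantile-normalised values, each with its standard error (SE) and a p-value adjusted by Benjamini-Hochberg over 18372 genes. The offset of 50 used in that correction shrinks the differences of dim probes. Since the 2 arrays of a population differ in age, age differences that the populations do not share enter the error, and the median residual SD was 0.18 for the ligands against 0.06 for all genes.

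Most ligands, 27 of the 35, were above background on all 6 arrays, and the populations differed mainly in their levels. Of the 35 genes, 32 were above background on at least 2 arrays and could be tested, and 13 of these had a single source population, called higher there (adjusted p under 0.05 and at least 2-fold) than in each of the other 2. CD31_CD45 cells were the source of 9 (Ccl3, Ccl4, Ccl5, Ccl6, Ccl9, Ccl12, Ccl24, Cxcl2 and Cxcl12), PDGFRa+ cells of 3 (Ccl2, Ccl11 and Cxcl14), and satellite cells of 1 (Ccl19). Among all tested genes, 4.55% had CD31_CD45 cells, 2.43% PDGFRa+ cells and 2.13% satellite cells as their source. The other 19 tested ligands had no source by this rule, and by mean log2 value 10 of them were brightest in CD31_CD45, 5 in PDGFRa+ and 4 in satellite cells. With a block for scanner set 8 ligands had a source, 7 of them among the 13 and the other Cxcl13. Ccl2, Ccl5, Ccl9, Ccl24, Cxcl2 and Cxcl14 lost theirs. Leaving out either PDGFRa+ array also gave 8 sources, and the local background of each spot 3. No background correction gave 17 sources, an offset of 10 gave 18 and the authors' values 17, and each kept all 13. In each of these settings Ccl21d, Cxcl10 and Xcl1 gained CD31_CD45 cells as source. Ccl7 gained PDGFRa+ cells without correction and with the offset of 10, and Cxcl5 on the authors' values. Cx3cl1 gained CD31_CD45 cells with the offset of 10.

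Between pairs of populations, 5 ligands differed for PDGFRa+ against satellite cells, 4 higher (background 4.09% of genes) and 1 lower (background 3.20%). Against CD31_CD45 cells, 5 were higher in PDGFRa+ cells (background 4.70%) and 11 lower (background 5.40%). Satellite cells had 3 ligands higher than CD31_CD45 cells (background 5.12%) and 13 lower (background 6.57%). The median log2 difference over the 32 tested ligands was 0.03 for PDGFRa+ against satellite cells, -0.46 for PDGFRa+ against CD31_CD45 cells and -0.91 for satellite against CD31_CD45 cells, where all genes had medians of -0.01, 0.01 and 0.02. All 5 PDGFRa+ against satellite calls were lost when either PDGFRa+ array was left out and with the local background. The PDGFRa+ against CD31_CD45 count of 16 became 10 when the young PDGFRa+ array was left out and 9 when the aged one was, 3 with the local background and 8 with a term for scanner set, of which 7 were among the 16. Within one scanner set, young PDGFRa+ minus young satellite cells had the direction of all 5 calls at 2-fold or more. Aged satellite minus aged CD31_CD45 cells had the direction of all 16, of which 15 reached 2-fold. The same arrays entered the calls, so this agreement was largely built in and is no independent check.

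**Figure D1:**
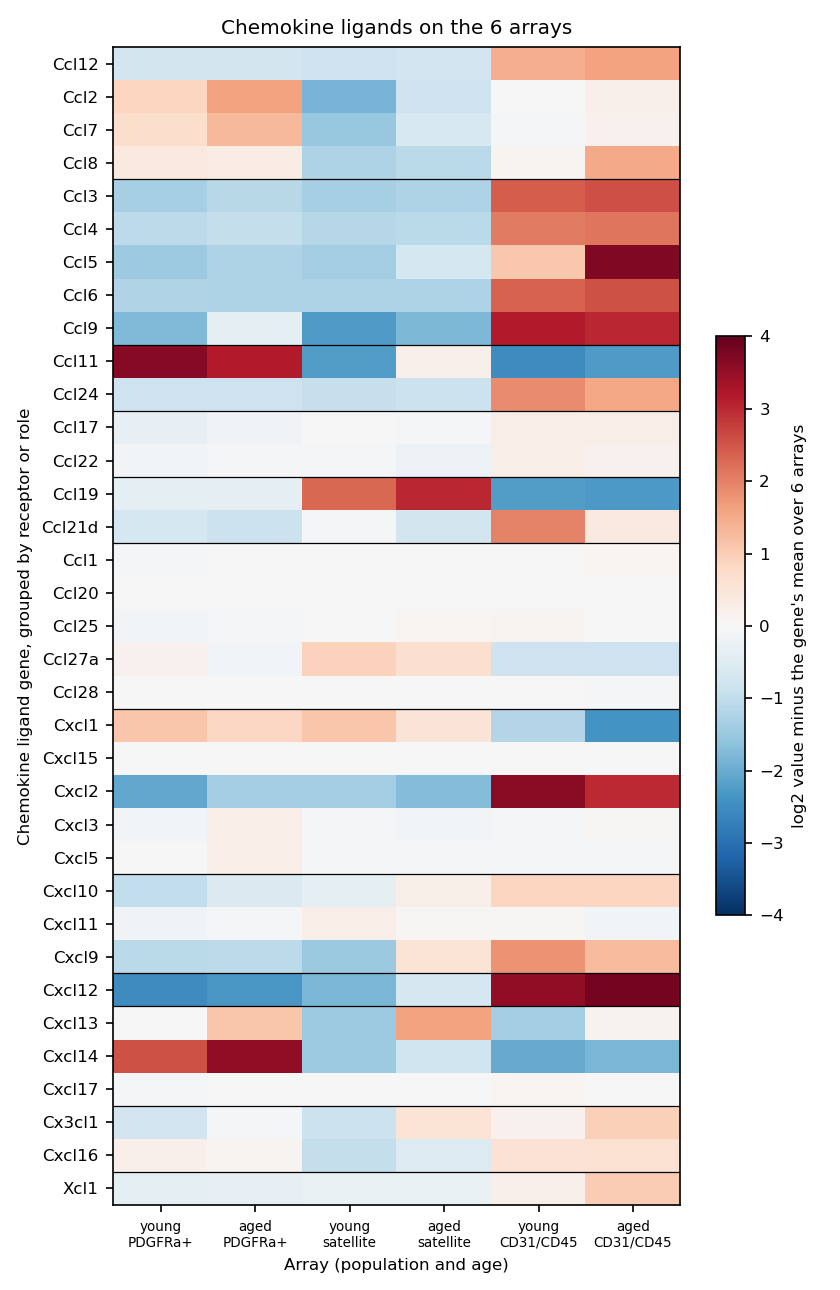
Log2 value of each of the 35 ligands on each of the 6 arrays (columns, population and age), shown as the difference from that gene's mean over the 6 arrays (colour, log2 units); lines separate groups of ligands by receptor or role. The 9 ligands with CD31_CD45 cells as source are red in the last 2 columns, as are some ligands without that source, such as Cxcl9 and Ccl21d, and Ccl11, Cxcl14 and Ccl19 stand out in the PDGFRa+ and satellite columns.

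The CXCR2 ligands attract neutrophils. Cxcl1 (probe M200004035) and Cxcl2 (probe M200002070) lie next to each other on chromosome 5 and bind the same receptor, yet they were high in different populations. Cxcl1 intensity was 4242.1 (young) and 3556.6 (aged) in PDGFRa+ cells, 5519.1 (young) and 2972.9 (aged) in satellite cells, and 850.1 (young) and 341.2 (aged) in CD31_CD45 cells. All 4 PDGFRa+ and satellite arrays were above both CD31_CD45 arrays. Its log2 difference from CD31_CD45 cells was 2.75 (SE 0.26, adjusted p = 0.00862) in PDGFRa+ and 2.59 (SE 0.26, adjusted p = 0.00827) in satellite cells, and PDGFRa+ and satellite cells were 0.16 apart (SE 0.26, adjusted p = 0.746). Cxcl2 ran the other way, at 43.6 (young) and 83.4 (aged) in PDGFRa+ cells, 90.2 and 61.5 in satellite cells, and 3466.6 and 2280.6 in CD31_CD45 cells. The CD31_CD45 arrays held 96.3% (young) and 94.0% (aged) of the Cxcl2 intensity summed over the 3 populations. The log2 difference was -5.03 (SE 0.37, adjusted p = 0.00568) for PDGFRa+ and -4.86 (SE 0.37, adjusted p = 0.00533) for satellite cells against CD31_CD45 cells. With a block for scanner set, the PDGFRa+ differences from CD31_CD45 cells were 2.90 for Cxcl1 (adjusted p = 0.133) and -5.43 for Cxcl2 (adjusted p = 0.0943), so neither passed the threshold. With the local background of each spot, Cxcl1 was 0.93 (PDGFRa+) and 0.56 (satellite) above CD31_CD45 cells (adjusted p = 0.960 and 0.967). Cxcl2 was then at -2.56 and -2.63 (adjusted p = 0.590 and 0.519), so the directions held but none was called.

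The promoters of Cxcl1, Cxcl2 and their neighbour Cxcl3 are shown because the same NF-kappaB match lay in all of them, although Cxcl1 and Cxcl2 were high in different populations and Cxcl3 was even. Sequences are from RefSeq, mouse build GRCm38.p6, plus strand, from 250 bases before to 50 bases after the annotated start, at chr5:90890995-90891294 (Cxcl1), chr5:90903649-90903948 (Cxcl2) and chr5:90785851-90786150 (Cxcl3). Capitals mark bases that match the NF-kappaB site consensus on either strand, where overlapping matches merge.
Cxcl1: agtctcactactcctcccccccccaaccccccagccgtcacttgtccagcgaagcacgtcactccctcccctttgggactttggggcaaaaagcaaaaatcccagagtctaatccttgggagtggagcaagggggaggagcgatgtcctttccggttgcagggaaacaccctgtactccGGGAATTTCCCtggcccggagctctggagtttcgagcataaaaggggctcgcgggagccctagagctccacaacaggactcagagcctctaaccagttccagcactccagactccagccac
Cxcl2: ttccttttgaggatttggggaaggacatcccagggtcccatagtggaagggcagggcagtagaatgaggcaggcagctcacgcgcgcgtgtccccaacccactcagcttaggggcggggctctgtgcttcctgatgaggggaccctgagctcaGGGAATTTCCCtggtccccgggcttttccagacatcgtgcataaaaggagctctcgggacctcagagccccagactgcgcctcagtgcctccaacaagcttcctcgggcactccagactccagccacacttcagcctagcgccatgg
Cxcl3: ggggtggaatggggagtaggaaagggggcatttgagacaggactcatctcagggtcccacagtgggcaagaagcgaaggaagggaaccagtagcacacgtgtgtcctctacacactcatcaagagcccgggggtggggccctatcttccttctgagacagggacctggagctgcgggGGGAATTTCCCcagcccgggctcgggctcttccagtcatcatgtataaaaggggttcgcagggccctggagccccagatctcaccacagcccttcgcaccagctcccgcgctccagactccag
In each promoter the same run, GGGAATTTCC, matches on the strand of the gene, starting 71 bases before the start of Cxcl1, 97 before Cxcl2 and 73 before Cxcl3, and an overlapping match lies on the opposite strand. Promoter entries were found for 25 of the 35 ligands. At least 1 match was found for 8 of them (Ccl1, Ccl9, Ccl20, Ccl27a, Cxcl1, Cxcl2, Cxcl3 and Cxcl10). Counted by promoter, 8 of the 28 ligand entries held a match, beside 8.46% of all 32851 promoters. The 10 ligands with no entry were Ccl2, Ccl4, Ccl5, Ccl7, Ccl11, Ccl24, Cxcl5, Cxcl11, Cxcl16 and Cxcl17. A match of letters is a description of the sequence and not a measured binding site.

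The other CXCR2 ligands were dim or even. Cxcl3 intensity was 40.2 to 57.9 on all 6 arrays, with no comparison past the threshold (adjusted p = 0.431 to 0.701). Cxcl5, made by many epithelial and stromal cells in inflammation, was above background only in young (3) and aged (8.2) PDGFRa+ cells, at least 1.14-fold over satellite cells by the bound that the background sets, and was not called (adjusted p = 0.144). Cxcl15, a lung chemokine, was above background on no array.

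Among the CCR2 ligands, which recruit monocytes, PDGFRa+ cells were brightest for Ccl2 and Ccl7 and CD31_CD45 cells for Ccl12. Ccl8, grouped with them here, was by mean log2 value also brightest in CD31_CD45 cells. Ccl2 (MCP-1, probe M200000049) had an intensity of 1151.4 (young) and 1818.1 (aged) in PDGFRa+ cells, 129.8 and 281.3 in satellite cells, and 573 and 620.2 in CD31_CD45 cells. The 3 populations did not overlap, and PDGFRa+ cells led at both ages, with 62.1% (young) and 66.9% (aged) of the summed intensity. PDGFRa+ cells were higher by a log2 difference of 2.59 (SE 0.23, adjusted p = 0.0119) than satellite cells and 1.14 (SE 0.23, adjusted p = 0.0409) than CD31_CD45 cells. This source call was the least stable of the 13: it held in 8 of 17 alternative settings, and the block for scanner set gave 1.68 against CD31_CD45 cells with an adjusted p = 0.145.

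Ccl7 (MCP-3), the neighbour of Ccl2, had the same order of populations, at 292.6 (young) and 422.8 (aged) in PDGFRa+ cells, 30.3 and 85 in satellite cells, and 153.1 and 179.6 in CD31_CD45 cells. It exceeded satellite cells by 2.08 (SE 0.18, adjusted p = 0.0117) in PDGFRa+ cells, but its log2 difference of 0.92 from CD31_CD45 cells (SE 0.18, adjusted p = 0.0392) lay just under 2-fold. Ccl12 (MCP-5) was nearly restricted to CD31_CD45 cells, with 136.2 in young and 153 in aged cells, against 2.3 and 2.3 in PDGFRa+ cells, below background in young satellite cells and 2.2 in aged satellite cells. Its log2 differences were -2.27 (SE 0.05, adjusted p = 0.00103) for PDGFRa+ and -2.32 (SE 0.05, adjusted p = 0.000937) for satellite against CD31_CD45 cells. Ccl8 (MCP-2) had 113.8 (young) and 92.5 (aged) in PDGFRa+ cells, 11.3 and 16.2 in satellite cells, and 83 and 270.6 in CD31_CD45 cells. Only its satellite against CD31_CD45 difference was called, at -1.98 (SE 0.44, adjusted p = 0.0433), and both PDGFRa+ values lay between the young and the aged CD31_CD45 value. Blocking on scanner set removed the satellite against CD31_CD45 calls of Ccl8 (-2.24, adjusted p = 0.126), Ccl7 (-0.91, adjusted p = 0.0634) and Ccl2 (-1.18, adjusted p = 0.0808).

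Ccl3, Ccl4, Ccl5, Ccl6 and Ccl9, inflammatory ligands that mainly draw monocytes, macrophages and T cells, all had CD31_CD45 cells as source. Ccl3 (MIP-1alpha) intensity was 500.1 (young) and 533.2 (aged) in CD31_CD45 cells and 5 to 9.5 on the other 4 arrays. Ccl4 (MIP-1beta) was 308.3 (young) and 310.7 (aged) in CD31_CD45 cells and 1.3 to 5.8 elsewhere, and Ccl6, a myeloid chemokine of rodents, was 430.1 and 482.6 against 3.4 to 4.5. No PDGFRa+ or satellite value of these genes came near the CD31_CD45 values. The log2 differences from CD31_CD45 cells were -3.71 and -3.77 for Ccl3, -3.11 and -3.23 for Ccl4 and -3.68 and -3.70 for Ccl6 in PDGFRa+ and satellite cells (SE 0.04 to 0.08, adjusted p = 0.000720 to 0.000943). Ccl3 and Ccl6 kept CD31_CD45 cells as source in 17 of 17 alternative settings.

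Ccl9 and Ccl5 had the same source but were less even. Ccl9, another myeloid chemokine of rodents, had 1546.7 (young) and 1300.3 (aged) in CD31_CD45 cells, 16.9 and 95.6 in PDGFRa+ cells, and 2.2 and 16.2 in satellite cells. Its differences from CD31_CD45 cells were -4.17 (SE 0.43, adjusted p = 0.0103) and -5.12 (SE 0.43, adjusted p = 0.0061) in PDGFRa+ and satellite cells, and a block for scanner set gave -4.32 (adjusted p = 0.153, not called) and -5.20 (adjusted p = 0.0404). Ccl5 (RANTES), abundant in activated T and NK cells, had 228.4 (young) and 1462.2 (aged) in CD31_CD45 cells, against 10.3 and 15.2 in PDGFRa+ and 11.4 and 39.8 in satellite cells. CD31_CD45 cells were above the other arrays at both ages, but the gap between the 2 CD31_CD45 arrays widened the error, with differences of -3.74 (SE 0.69, adjusted p = 0.0334) and -3.45 (SE 0.69, adjusted p = 0.0344). The Ccl5 source call held in 10 of 17 alternative settings, and with a block for scanner set neither difference was called (adjusted p = 0.244 and 0.116).

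**Figure D2:**
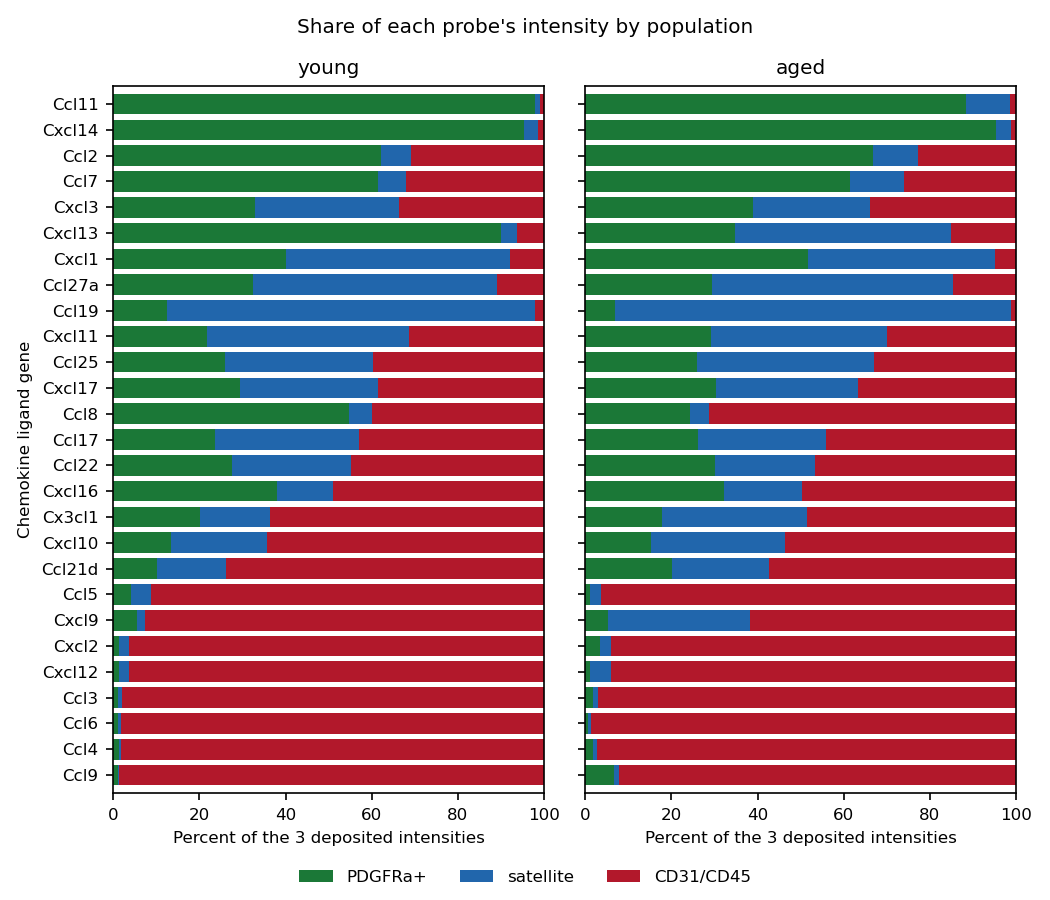
Share of the deposited intensity of each probe, in percent of the sum over the 3 populations, in young (left) and aged (right) arrays, for the 27 ligands above background on all 6 arrays; colours are populations. The lower bars are almost wholly CD31_CD45 cells, Ccl11 and Cxcl14 PDGFRa+ cells, and Ccl19 satellite cells.

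These shares give each population equal weight, and array intensities do not show how many cells of each kind a muscle holds. Over the 9 ligands with CD31_CD45 cells as source, that population held 91.3% to 99.1% of the summed intensity in young and 92.1% to 98.6% in aged arrays. These ligands were picked for being higher there, so a large share was built in. Cxcl12 is counted by its chosen probe, and its other probe was highest in PDGFRa+ cells.

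The eosinophil attractants that bind CCR3 had opposite sources. Ccl11 (eotaxin-1, probe M200001889) had an intensity of 5477.7 (young) and 4109.1 (aged) in PDGFRa+ cells, 67.7 and 477 in satellite cells, and 49.3 and 66.1 in CD31_CD45 cells. PDGFRa+ cells held 97.9% of the sum in young and 88.3% in aged arrays, well apart from the rest. Ccl11 was higher in PDGFRa+ cells by 4.42 (SE 0.80, adjusted p = 0.0379) against satellite and 5.79 (SE 0.80, adjusted p = 0.0187) against CD31_CD45 cells. The call over both held in 12 of 17 alternative settings. Ccl24 (eotaxin-2), a product of tissue macrophages, had 210.9 (young) and 153.4 (aged) in CD31_CD45 cells, 2 and 2 in PDGFRa+ cells, and 1.1 in aged satellite cells, and was below background in young satellite cells. Its log2 difference from CD31_CD45 cells was -2.54 (SE 0.13, adjusted p = 0.00305) in PDGFRa+ and -2.62 (SE 0.13, adjusted p = 0.0025) in satellite cells, so the 2 eotaxins were high in different populations. The PDGFRa+ against CD31_CD45 call of Ccl24 was lost with a block for scanner set (-2.30, adjusted p = 0.0656), and that of Ccl11 held (8.31, adjusted p = 0.0367). The block draws on the satellite age pair, where Ccl11 differed by 2.42, so neither outcome isolates the scanner.

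Satellite cells were the source of a single ligand, Ccl19, which guides CCR7-bearing dendritic cells and naive T cells. Its intensity was 1954 (young) and 3431.1 (aged) in satellite cells, 282.5 and 261.1 in PDGFRa+ cells, and 47.8 and 45.3 in CD31_CD45 cells. The populations did not overlap, and satellite cells held 85.5% (young) and 91.8% (aged) of the sum. The log2 difference was -3.03 (SE 0.23, adjusted p = 0.00951) for PDGFRa+ against satellite cells, and 4.93 (SE 0.23, adjusted p = 0.00236) for satellite against CD31_CD45 cells. PDGFRa+ cells stood in between, 1.90 above CD31_CD45 cells (SE 0.23, adjusted p = 0.0143). Within single scanner sets the young PDGFRa+ array was at -2.69 from the young satellite array, and the aged satellite array 5.31 above the aged CD31_CD45 array. Near-identical copies of Ccl19 are annotated in the mouse, so its probe may read more than 1 gene.

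The other CCR7 ligand on the array, Ccl21d, is one of several near-identical Ccl21 copies made mainly by lymphatic endothelium, and its value is uncertain for the same reason. It had 1090.4 (young) and 333.2 (aged) in CD31_CD45 cells, 150.3 and 117.5 in PDGFRa+ cells, and 234.2 and 130.3 in satellite cells. Both CD31_CD45 arrays were above the rest, and the PDGFRa+ against CD31_CD45 difference was called at -1.96 (SE 0.39, adjusted p = 0.0402; -1.75 and not called after blocking on scanner set, adjusted p = 0.392), while the satellite difference of -1.60 was not (SE 0.39, adjusted p = 0.0551). Ccl27a, a CCR10 ligand that also has a near-identical copy, was brightest in satellite cells, at 239.9 and 177.8 in young and aged cells, against 137.8 and 93.4 in PDGFRa+ and 46.7 and 47 in CD31_CD45 cells. It was 1.62 higher in satellite than in CD31_CD45 cells (SE 0.09, adjusted p = 0.00318), and its -0.75 in PDGFRa+ against satellite cells was under 2-fold (SE 0.09, adjusted p = 0.0186).

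Of the remaining CC ligands, the CCR4 ligands Ccl17 and Ccl22, which attract regulatory and helper T cells, were brightest in CD31_CD45 cells but within a narrow range of 47.6 to 86.2 and 19.7 to 42.3 over the 6 arrays. Ccl25, a thymic and gut chemokine, was at 10.5 to 17.3, and its second, dimmer probe ranked the populations differently. Ccl28 was above background only on the 3 young arrays, at 1 to 1.7. Ccl1 was above background on the aged CD31_CD45 array alone, at 2.5, and Ccl20 on none, so neither was tested.

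Cxcl14, a chemokine of stromal and epithelial tissues, was a PDGFRa+ gene by both of its probes. The brighter probe (M300002790) had 1431.3 (young) and 2640.4 (aged) in PDGFRa+ cells, 48.6 and 94.2 in satellite cells, and 22.6 and 31.8 in CD31_CD45 cells. The other (M400012815) had 175.3 and 392.2 in PDGFRa+ cells and 1.4 to 8.9 on the other 4 arrays. For the brighter probe the log2 difference was 4.20 (SE 0.22, adjusted p = 0.00663) against satellite and 4.97 (SE 0.22, adjusted p = 0.00245) against CD31_CD45 cells. With a block for scanner set the second of these was 5.04 and no longer called (adjusted p = 0.0621).

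Cxcl12 (SDF-1), which holds hematopoietic stem cells and progenitors in their niches through CXCR4, was brightest in a different population by each of its probes. The probe chosen by the rule (M400007361) had 5973.7 (young) and 6811.1 (aged) in CD31_CD45 cells, 78.3 and 85.8 in PDGFRa+ cells, and 142.7 and 342.8 in satellite cells. By this probe CD31_CD45 cells were far above the rest, with differences of -6.11 (SE 0.28, adjusted p = 0.00269) in PDGFRa+ and -4.94 (SE 0.28, adjusted p = 0.00328) in satellite cells. The second probe (M400011403) had 1498.2 (young) and 1598 (aged) in PDGFRa+ cells, 102.3 and 473 in satellite cells, and 624.4 and 557.3 in CD31_CD45 cells. By that probe PDGFRa+ cells were highest at both ages, with log2 differences of 2.47 (SE 0.60, adjusted p = 0.0673) over satellite and 1.25 (SE 0.60, adjusted p = 0.232) over CD31_CD45 cells, neither called. The probes are annotated to 2 different transcripts that RefSeq lists for Cxcl12, and their mean log2 values over the 6 arrays were 9.90 and 9.91, so the choice between them rests on the scale used for the mean. The source of Cxcl12 therefore cannot be given for the gene as a whole, and the count of 9 CD31_CD45 sources includes it by the chosen probe.

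**Figure D3:**
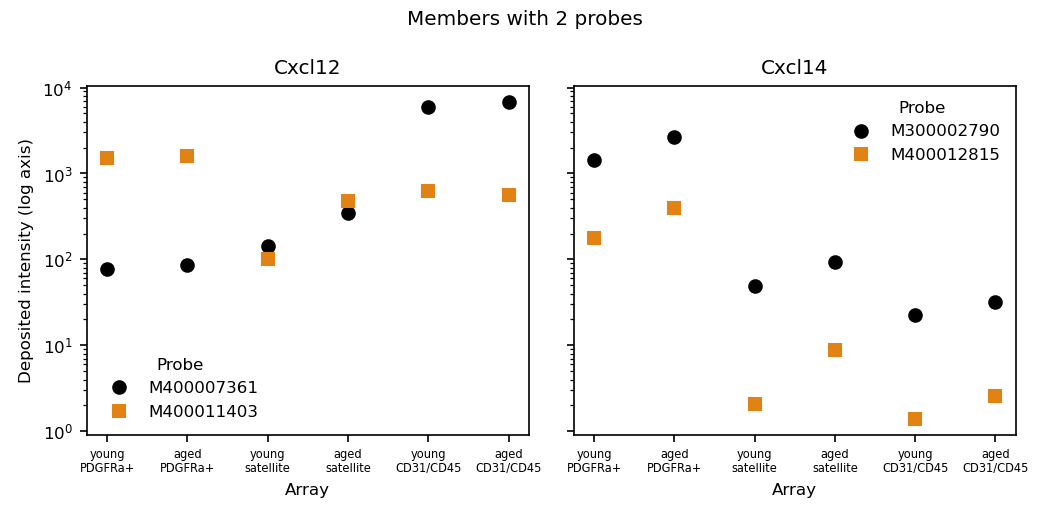
Deposited intensity (log axis) of both probes of Cxcl12 (left) and Cxcl14 (right) on the 6 arrays; black circles are the probe used, orange squares the other, and heights of different probes are not comparable. The Cxcl12 probes order the populations differently, with CD31_CD45 cells highest by one and PDGFRa+ cells by the other, whereas both Cxcl14 probes are highest in PDGFRa+ cells.

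Of the interferon-induced CXCR3 ligands, which attract activated T and NK cells, Cxcl10 and Cxcl9 were brightest in CD31_CD45 cells. Cxcl10 had 319.1 (young) and 309.3 (aged) in CD31_CD45 cells, 65.6 and 87.5 in PDGFRa+ cells, and 110.2 and 179.1 in satellite cells. The populations kept that order at both ages, and the PDGFRa+ against CD31_CD45 difference was called at -1.64 (SE 0.18, adjusted p = 0.0112; -1.20 and not called after blocking on scanner set, adjusted p = 0.143), while the satellite difference of -0.95 was under 2-fold (SE 0.18, adjusted p = 0.0297). Cxcl9 had 390.4 and 251.9 in CD31_CD45 cells, 23.4 and 21.6 in PDGFRa+ cells, and 8 (young) and 133.9 (aged) in satellite cells. With the satellite arrays so far apart, its differences of -2.59 (SE 0.73, adjusted p = 0.0838) and -2.01 (SE 0.73, adjusted p = 0.126) from CD31_CD45 cells were not called. Cxcl11, a transcribed pseudogene in the RefSeq annotation, was at 12.8 to 27.6 on the 6 arrays, brightest in satellite cells with no difference called.

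Both membrane-bound chemokines were expressed in all populations. Cxcl16, the ligand of CXCR6, had 279.3 (young) and 274.8 (aged) in CD31_CD45 cells, 217.3 and 178.2 in PDGFRa+ cells, and 73.1 and 101.8 in satellite cells. Only satellite cells stood apart, with a log2 difference of -1.36 from CD31_CD45 cells (SE 0.14, adjusted p = 0.0088), and their gap to PDGFRa+ cells was under 2-fold at 0.90 (SE 0.14, adjusted p = 0.0276). Cx3cl1 (fractalkine) had 78.2 (young) and 155.1 (aged) in CD31_CD45 cells, 24.8 and 57.3 in PDGFRa+ cells, and 20 and 107.1 in satellite cells. The aged satellite value exceeded the young CD31_CD45 value, so the populations overlapped, and the largest difference, -0.95 for PDGFRa+ against CD31_CD45 cells (SE 0.21, adjusted p = 0.0496), was under 2-fold. Xcl1, a product of T and NK cells, had 15.3 (young) and 55 (aged) in CD31_CD45 cells, about 2 in satellite cells (2.1 and 2.3) and nothing above background in PDGFRa+ cells, where the bound put CD31_CD45 cells at least 1.89-fold higher (adjusted p = 0.0761). Cxcl17, a mucosal chemokine, lay between 13.9 and 18.2 on every array.

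Chromosomal neighbours did not always share a source. In the cluster on chromosome 11 that runs Ccl2, Ccl7, Ccl11, Ccl12, Ccl8, Ccl1, the first 3 genes were by mean log2 value brightest in PDGFRa+ cells and the last 3 in CD31_CD45 cells. Ccl7 and Ccl8 had no source by the test, and on the young arrays Ccl8 was higher in PDGFRa+ (113.8) than in CD31_CD45 cells (83). Ccl1 was above background on 1 array only and was not tested. The second cluster on that chromosome, Ccl5, Ccl9, Ccl6, Ccl3 and Ccl4, had CD31_CD45 cells as source for all 5. On chromosome 5 the adjacent Cxcl1 and Cxcl2 were at 2.75 and -5.03 from the CD31_CD45 level in PDGFRa+ cells.

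**Figure D4:**
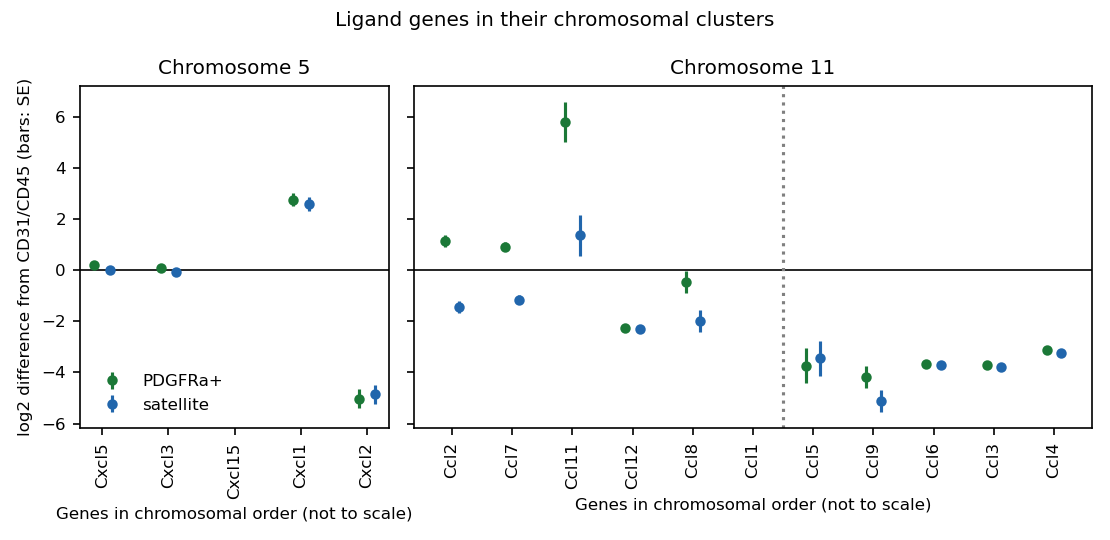
Log2 difference from CD31_CD45 cells (points, bars are the SE of the fit) for PDGFRa+ (green) and satellite cells (blue), with genes in chromosomal order and a dotted line between clusters; Ccl1 and Cxcl15 were not tested and have no point. Values above 0 and below 0 adjoin within the first chromosome 11 cluster and between Cxcl1 and Cxcl2, and all values of the second chromosome 11 cluster lie below 0.

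Of 22 receptor genes tested, 4 had CD31_CD45 cells as source (Ccr2, Ccr7, Ccrl2 and Cx3cr1; background 4.55% of genes). None had PDGFRa+ (background 2.43%) or satellite cells (background 2.13%) as source. In the pairs, 5 were lower (background 5.40%) and 2 higher (background 4.70%) in PDGFRa+ than in CD31_CD45 cells. In satellite against CD31_CD45 cells, 5 were lower (background 6.57%) and none higher (background 5.12%). In PDGFRa+ against satellite cells, 1 was higher (background 4.09%) and 2 lower (background 3.20%). The medians of these comparisons were -0.46, -0.48 and 0.01. Ccr2, the receptor of Ccl2, Ccl7 and Ccl12, had 349 (young) and 445.7 (aged) in CD31_CD45 cells and at most 1.5 elsewhere, a log2 difference of -3.59 (SE 0.11, adjusted p = 0.00155) for PDGFRa+ cells. Of these ligands, Ccl12 was brightest in that same population and Ccl2 and Ccl7 in PDGFRa+ cells. Cxcr4, the receptor of Cxcl12, was lowest in PDGFRa+ cells (10.7 and 8.4), and had 182.3 (young) and 211 (aged) in satellite cells and 118.8 and 174.1 in CD31_CD45 cells, with differences of -2.41 (SE 0.14, adjusted p = 0.00722) and -2.01 (SE 0.14, adjusted p = 0.00504). The decoy receptor Ackr1, which binds many inflammatory chemokines without signalling, was lowest in satellite cells, with a log2 difference of 1.89 for PDGFRa+ against satellite cells (SE 0.11, adjusted p = 0.00729) and -2.15 for satellite against CD31_CD45 cells (SE 0.11, adjusted p = 0.00268). The scavengers Ackr3 (1.58) and Ackr4 (1.09), named after their values were seen, were the 2 receptors higher in PDGFRa+ than in CD31_CD45 cells.

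Lists of genes that act before or after the ligands are given by their counts and median log2 differences. Of all tested genes, 5.40% were lower and 4.70% higher in PDGFRa+ than in CD31_CD45 cells. The shares were 6.57% lower and 5.12% higher in satellite than in CD31_CD45 cells, and 3.20% lower and 4.09% higher in PDGFRa+ than in satellite cells. As sources, PDGFRa+ cells had 2.43%, satellite cells 2.13% and CD31_CD45 cells 4.55% of genes. The interferon-gamma response list had 15 of 17 genes lower and 1 higher in PDGFRa+ than in CD31_CD45 cells (median -2.01) and 13 lower in satellite than in CD31_CD45 cells (median -2.42), with Gbp4, an interferon-induced GTPase, at -3.47 and -3.35. Il1b, which induces many chemokines, was at -5.81 in PDGFRa+ against CD31_CD45 cells (SE 0.06, adjusted p = 0.000862) and Tnf at -2.02 (SE 0.08, adjusted p = 0.00216), the 2 of 10 inducers called in that comparison (median -0.47). Among 16 NF-kappaB pathway and feedback genes, 5 were lower and none higher in PDGFRa+ than in satellite cells (median -0.60), led by Nfkbiz (-1.56) and Bcl3 (-1.38), which encode nuclear IkappaB proteins. A list of 11 genes that cut or bind chemokines held 3 with PDGFRa+ cells (Dpp4, Mmp2 and Mmp14), 1 with satellite cells (Sdc4) and 1 with CD31_CD45 cells as source (Adam10), named after their values were seen. The PDGFRa+ medians of the list were 0.07 over satellite and 0.37 over CD31_CD45 cells. Dpp4, whose product trims the first residues of several chemokines, was at 3.52 over satellite cells (SE 0.07, adjusted p = 0.00392) and 2.91 over CD31_CD45 cells (SE 0.07, adjusted p = 0.00113), and Sdc4, a heparan sulfate proteoglycan, at -2.89 in PDGFRa+ against satellite cells (SE 0.24, adjusted p = 0.0108). Pf4 (CXCL4), a platelet and macrophage chemokine with an old name outside the symbol rule, had CD31_CD45 cells as source, with 1763.1 and 1353.2 there and 6.2 to 18.1 elsewhere. A list of 19 genes that respond to tissue dissociation, which can induce chemokines, had 7 higher and 3 lower in satellite than in CD31_CD45 cells (median 0.63) and summed to 161081.4 (young) and 125354.6 (aged) in satellite cells, against 66389.5 to 87923.8 on the other 4 arrays. Its part in the ligand levels was not tested.

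With a single array left out, every called difference between populations kept its direction, and these calls were lost. The Ccl11 calls over satellite and CD31_CD45 cells were lost without any one of the 4 PDGFRa+ or CD31_CD45 arrays (adjusted p = 0.0671 to 0.169). The PDGFRa+ against satellite difference was lost without either PDGFRa+ array for Ccl2 (adjusted p = 0.0802 and 0.0888), Ccl7 (0.0793 and 0.0914), Ccl19 (0.0683 and 0.0773) and Cxcl14 (0.0505 and 0.0649). Against CD31_CD45 cells, the PDGFRa+ difference of Ccl2 held only without the young CD31_CD45 array, with an adjusted p = 0.0506 to 0.204 otherwise, and that of Ccl21d only without the aged one (0.0722 to 0.157). The Ccl19 difference of PDGFRa+ from CD31_CD45 cells was lost without any PDGFRa+ or CD31_CD45 array (0.0603 to 0.100), that of Cxcl10 without either PDGFRa+ array (0.0835 and 0.0898), and that of Cxcl1 without the aged PDGFRa+ array (0.0527). The Ccl5 source and the Ccl8 call were lost without any PDGFRa+ or satellite array (0.0632 to 0.181). The satellite against CD31_CD45 calls of Ccl2 and Ccl7 were lost without either PDGFRa+ array or the young satellite array (0.0634 to 0.0808), that of Ccl7 also without the young CD31_CD45 array (0.0612), and that of Cxcl16 without either CD31_CD45 array (0.0570 and 0.0662). All other calls, among them those of Ccl3, Ccl4, Ccl6, Ccl9, Ccl12, Ccl24, Ccl27a, Cxcl2 and Cxcl12 by its chosen probe, held in every fit with 1 array left out.

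No ligand was called for the age difference common to the 3 populations in limma (0 of 32, background 0.00%). At an unadjusted p under 0.05 there were 7 ligands and 2026 genes, and the smallest adjusted p was 0.328 for a ligand and 0.324 for any gene. Within a population, 1 aged array was set against 1 young array, so the differences below have no test and no replicate check. The PDGFRa+ pair had 2 of 31 ligands 2-fold or more higher with age (background 0.261%) and 0 lower (background 0.161%). Satellite cells had 6 of 31 higher (background 1.12%) and 0 lower (background 0.0990%), and CD31_CD45 cells 3 of 32 higher (background 0.509%) and 2 lower (background 0.0657%). The median aged minus young log2 difference over the ligands was 0.08, 0.07 and 0.04 in the 3 populations. On the authors' value table, which has no offset, the ligands past 2-fold numbered 4, 12 and 8 in place of 2, 6 and 5.

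Cxcl13, which draws B cells through CXCR5, was the ligand past 2-fold in all 3 pairs. Its intensity was 68.5 (young) and 180.5 (aged) in PDGFRa+ cells, 2.9 and 260.6 in satellite cells, and 4.7 and 77.6 in CD31_CD45 cells. Each aged array was above all 3 young arrays, and the aged minus young log2 differences were 1.15, 3.06 and 1.51. The age term of the fit was 1.90 (SE 0.44, adjusted p = 0.374). By population its differences were 0.47 to 1.17 and were not called. With a term for scanner set, PDGFRa+ cells exceeded satellite cells by 1.34 (adjusted p = 0.0458) and CD31_CD45 cells by 2.90 (adjusted p = 0.0489). That term takes up the part of the satellite age difference of 3.06 that the other populations did not share. These 2.90 and 1.34 values therefore do not separate scanner set from age in satellite cells.

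The aged satellite array had 5 more ligands past 2-fold. Ccl11 (67.7 to 477, log2 2.42), Cxcl9 (8 to 133.9, 2.04), Cx3cl1 (20 to 107.1, 1.41), Cxcl12 (142.7 to 342.8, 1.15) and Ccl2 (129.8 to 281.3, 1.01) were higher in aged than in young satellite cells. In the other populations these genes moved by -0.54 to 0.77. Ccl11 and Ccl2 reached 11.6% and 15.5% of their aged PDGFRa+ intensity in aged satellite cells. Cxcl9, Cx3cl1, Cxcl13 and the chosen Cxcl12 probe were brighter in aged satellite than in aged PDGFRa+ cells, and the second Cxcl12 probe also differed with age in satellite cells (102.3 to 473, log2 1.97).

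Markers of other cells moved on the same array. Of 11 mesenchymal markers, 6 were 2-fold or more higher in aged than in young satellite cells and none lower, led by Mfap5 (130 to 770.9), Dcn (453.6 to 2544), Lum (43.8 to 224.6) and Col1a2 (554.3 to 1591.5), and the summed intensity of the list was 16545.2 and 22211.9. Dcn reached 13.3% of its aged PDGFRa+ intensity and Mfap5 4.85%. Pericyte and smooth muscle markers were higher for 4 of 7 (sum 4766.6 and 8369.4), tendon markers for 3 of 5 (810.4 and 3071.4), myofibre genes for 4 of 7 (2328.5 and 4342.7), macrophage markers for 1 of 12, Lyz2 (147.3 to 965.3; sum 681.9 and 1744.0), and neutrophil markers for 1 of 8, S100a9 (1.3 to 70.7; sum 160.0 and 254.0). Endothelial (906.8 and 984.5) and pan-hematopoietic markers (64.5 and 103.2) had 0 of 10 and 0 of 9, and the satellite list summed to 23033.1 and 17363.5. The cytokine Il6 was also higher (59.7 to 271.8). The part of these markers and of the scanner set, which differs between the 2 satellite arrays, in the ligand differences was not tested.

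**Figure D5:**
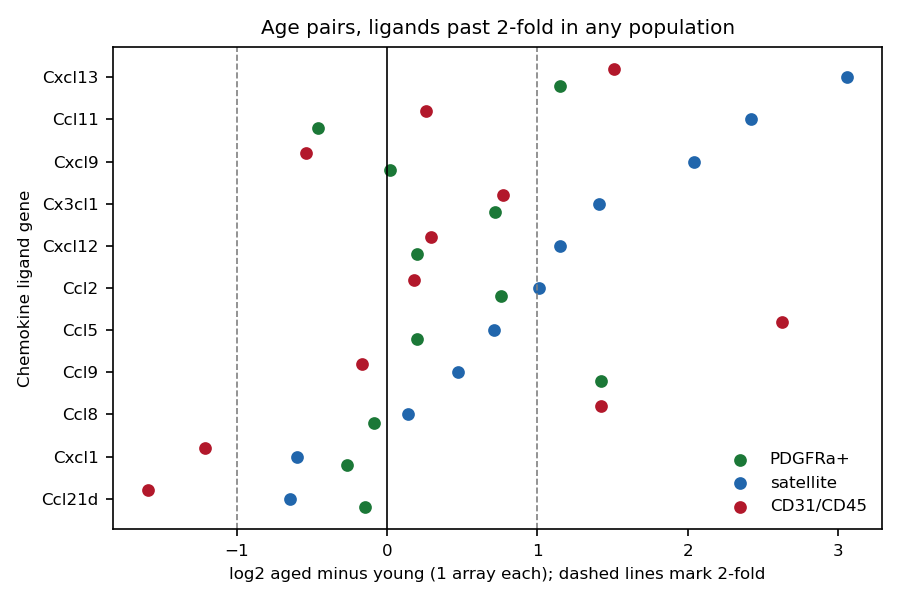
Aged minus young log2 difference (1 array each, no test) for the 11 ligands past 2-fold in any population; colours are populations and dashed lines mark 2-fold. Cxcl13 lies beyond the right dashed line in all 3 populations, and Ccl5 is the largest difference in CD31_CD45 cells.

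In PDGFRa+ cells the ligands past 2-fold were Cxcl13 and Ccl9 (16.9 to 95.6, log2 1.42), and Cxcl14, at 1.00 after rounding, lay just under the threshold. The second, dimmer Cxcl14 probe was past it (175.3 to 392.2, log2 1.13). Both PDGFRa+ arrays are in one scanner set, and with the local background of each spot Ccl9 was at -0.11 with age. Beside Ccl9, 1 of 12 macrophage markers was past 2-fold (Lyz2, 110.1 to 1904.6). The macrophage list summed to 9530.0 and 14046.1, but Ly6c2 alone made up 11899.5 of the aged sum. Of its 11 markers above background, 8 were higher with age, with a median log2 difference of 0.22. The pan-hematopoietic list summed to 127.1 and 121.7, with 6 of 9 higher with age and a median of 0.01. The part of such cells in the Ccl9 value was not tested.

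The CD31_CD45 pair, also in one scanner set, had Ccl5 (228.4 to 1462.2, log2 2.63), Cxcl13 (1.51) and Ccl8 (83 to 270.6, 1.42) higher and Ccl21d (1090.4 to 333.2, -1.59) and Cxcl1 (850.1 to 341.2, -1.21) lower. Ccl5 had the largest age difference of a ligand in that population. With the local background as an alternative, Ccl8 was at -0.14 and Cxcl1 at 1.69 with age. Of 11 T and NK cell markers, 3 were past 2-fold higher on the same array (Cd3g 27.7 to 128.6, Cd3d 59 to 184.8 and Nkg7 15.8 to 80.2; sum 350.6 and 765.9), as were 2 of 5 B cell markers (Ms4a1 64.9 to 168.5 and Cd79b 147.7 to 327.9; sum 268.5 and 620.0) and Ifng (17.4 to 158.3). Beside Ccl21d, none of the 6 lymphatic endothelial markers passed 2-fold, with a sum of 360.4 and 291.0. The part of the mix of cells in these differences was not tested.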

How the data were processed

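RNA of each population and age was amplified and labelled with Cy5, per the labels, and hybridised to 1 one-colour array. The scanner files deposited by the authors give spot median intensity merged from 3 scanner gains, per the file headers. The authors' value table holds linear intensity with a median of 25 per array; set against the scanner files it equalled the spot median minus the mean of 2736 blank spots (5% trimmed), times a constant (largest difference 0.0935), with empty cells taken as below background. The submitters' analysis software is not given in the sources used here.

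Spot medians were corrected with limma 3.58.1 (R 4.3.3; normexp, blank spots as background, offset 50), log2-transformed and quantile normalised. Population and age were fitted to all 6 arrays (lmFit, eBayes, 2 residual and 1.50 prior degrees of freedom), for genes above background on at least 2 arrays; tests were two-sided. The pipeline was tested on simulated data. The members, the gene lists and the rule for naming genes (members called or 2-fold apart with age in full, at most 4 genes of any other list per comparison) were chosen with earlier results of these data known. Gene symbols are those of the platform annotation, brought up to date through RefSeq Entrez identifiers. Scanner sets were read from gain slopes in the headers (0.465 to 0.466 and 0.477 to 0.478). P-values measure the spread between these arrays only, and their number limits the precision. Figures were drawn with matplotlib 3.10.9.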

Additional observations from a re-analysis of the deposited data

How the results depend on the processing

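Alternatives were planned except for the choice of probe by mean log2 value, which was added after seeing the data. The counts of ligands called (5, 16 and 16 for PDGFRa+ against satellite, PDGFRa+ against CD31_CD45 and satellite against CD31_CD45 cells), of sources (13) and of ligands past 2-fold with age (2, 6 and 5) stayed within 1.5 times under median scaling, no filter, the stricter filter, the mean of all probes and the probe by mean log2, as did the population counts in the fit without age. The age term had 0 calls in every alternative that holds it. With the local background the 4 counts were 0, 3, 3 and 3, and Ccl9 in PDGFRa+ (-0.11), Ccl8 in CD31_CD45 (-0.14) and Cxcl1 in CD31_CD45 cells (1.69) changed their sign with age. PDGFRa+ against satellite calls numbered 8 without background correction and with an offset of 10, and 11 on the authors' value table; the ligands past 2-fold with age in PDGFRa+ cells numbered 4 under each of these. With the authors' values 12 ligands passed 2-fold in satellite and 8 in CD31_CD45 cells, and the median of all genes shifted by -0.17 in the PDGFRa+ age pair. By the probe with the higher mean log2, Cxcl12 stood at 1.25 for PDGFRa+ against CD31_CD45 cells (adjusted p = 0.231). The scanner set as a block gave 8 calls for PDGFRa+ against CD31_CD45 cells and 8 sources. That block cannot be told apart from an age difference particular to satellite cells. Leaving out each array in turn gave 0 to 7 calls for PDGFRa+ against satellite, 9 to 16 for PDGFRa+ against CD31_CD45 cells, 12 to 17 for satellite against CD31_CD45 cells and 8 to 15 sources. The causes were not tested, beyond the fewer arrays in the last. No paired analysis was possible because each group holds 1 array and no replicate number repeats; the fit with age already sets populations side by side at the same age. Signals near background limit Ccl1, Ccl20, Ccl28, Cxcl5, Cxcl15 and Xcl1.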
